A study of Mus musculus with 8 samples.

Results

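The galectin family was examined in RNA from the epididymal fat pad, a visceral white fat depot of the male mouse, in 2 genotypes. The members were 5 galectin genes, Lgals1, Lgals3, Lgals8, Lgals9 and Lgals12, and Lgals3bp, which encodes a secreted protein that binds galectin 3. They were taken by symbol, and all 6 were found among the 34866 genes of the table. The control group carried Aromatase flox/flox, in which the aromatase gene Cyp19a1 is flanked by loxP sites, and had 4 libraries, called flox libraries here. The other group carried aP2-Cre and Aromatase flox/flox, and had 4 libraries, called Cre libraries here. Both groups carry the floxed allele, and no group with the aP2-Cre transgene alone was analysed here, so the transgene and the deletion cannot be told apart. The series title gives the mice as male, and the labels used here give no age. In aP2-Cre mice the recombinase is driven from regulatory sequence of Fabp4, a fatty acid carrier of fat cells. Macrophages express Fabp4 too, so this driver is not strictly a fat cell tool. The submitters set out to find targets of aromatase in fat that bear on phosphorus metabolism.

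Galectins are small lectins that bind sugars carrying β-galactose, mainly N-acetyllactosamine units on the glycans of membrane and secreted proteins. They are made in the cytosol, leave the cell without a signal peptide, and can cross-link glycoproteins on the surface or mark damaged endosomes and lysosomes from the inside. In fat tissue galectin 3 is best known as a macrophage product, galectin 12 is made by fat cells and sits on lipid droplets, and galectin 1 is abundant in stromal and endothelial cells. Where galectins bind depends on enzymes that build the glycans, such as the branching enzyme Mgat5.

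The libraries were made by BRB-seq, in which cDNA is primed at the poly(A) tail, so that reads come from the 3′ ends of transcripts. They held 1538427 to 3053565 estimated counts, and flox replicate 4 was the smallest. Values below are CPM, counts scaled to a common library size with factors from the trimmed mean of M values (TMM). Cyp19a1 had 2.003, 1, 5.017 and 1 estimated counts in flox replicates 1 to 4 and 0, 4, 2.08 and 1.592 in Cre replicates 1 to 4. The groups overlapped, the gene did not pass the low-count filter, and the deletion could not be checked at this depth. The labels list the libraries as separate samples but do not say that they came from separate animals, so p-values measure the spread between these samples.

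Of the 6 members, Lgals3 alone passed the test between genotypes, an adjusted p under 0.05 in edgeR's quasi-likelihood fit over all 12480 genes tested. In that fit 21 genes passed, 0.168% of those tested, with 0.12% higher and 0.0481% lower in the Cre libraries. Lgals3 was higher in the Cre libraries. The other 5 members had log2 fold changes from -0.10 to 0.12, and 0 of them had an unadjusted p under 0.05 in edgeR. Of all tested genes, 6.39% had such an unadjusted p in edgeR (3.52% higher and 2.87% lower). In DESeq2 and limma-voom, where 55 and 22 genes passed, 0 of these 5 members did. Over the 6 members the median log2 fold change was 0.03, beside a median of -0.001 over all genes tested, with 3 members above 0 and 3 below.

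Lgals3 (ENSMUSG00000050335, GRCm38 chromosome 14, 47367751 to 47386160, plus strand) encodes galectin 3, which has a sugar-binding domain behind a flexible tail through which it forms oligomers. Its level was 204, 180.3, 203 and 128 CPM in flox replicates 1 to 4. It was 351, 346, 350.3 and 353 CPM in Cre replicates 1 to 4. Every Cre library lay above every flox library, a separation that 4.21% of all tested genes showed, 2.48% higher and 1.74% lower. The means were 179 ± 35.5 CPM in the flox and 350 ± 2.71 CPM in the Cre libraries (SD, n = 4 each). The log2 fold change was 0.96 with a standard error of 0.137 (95% interval 0.67 to 1.26, 1.95-fold, edgeR adjusted p = 0.00776). By p it stood behind 7 other genes, and 99.1% of tested genes had a lower log2 fold change. In whole tissue, more cells that express the gene and more of its RNA per cell cannot be told apart.

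For Lgals3 the SD of the 4 Cre libraries was below that of counting error. Whether 4 values would fall this close by chance was not tested. At 766 to 1075 estimated counts, counting error alone corresponds to an SD of 11.7 CPM, against the 2.71 CPM observed. In the flox libraries the observed SD of 35.5 CPM was above the 8.93 CPM of counting error, and flox replicate 4 was the low value. Without flox replicate 4 the log2 fold change of Lgals3 was 0.84 (edgeR adjusted p = 0.00182). Without flox replicate 2 it was 0.97 but the gene no longer passed (edgeR adjusted p = 0.0605). The share of counts from mitochondrial genes also differed between the groups without overlap, at 10.7% to 12.4% in the flox and 8.7% to 10.1% in the Cre libraries, and its part in the Lgals3 result was not tested. None of the 31-base words of its transcripts was found in another gene, and no annotated gene overlaps it.

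**Figure D1:**
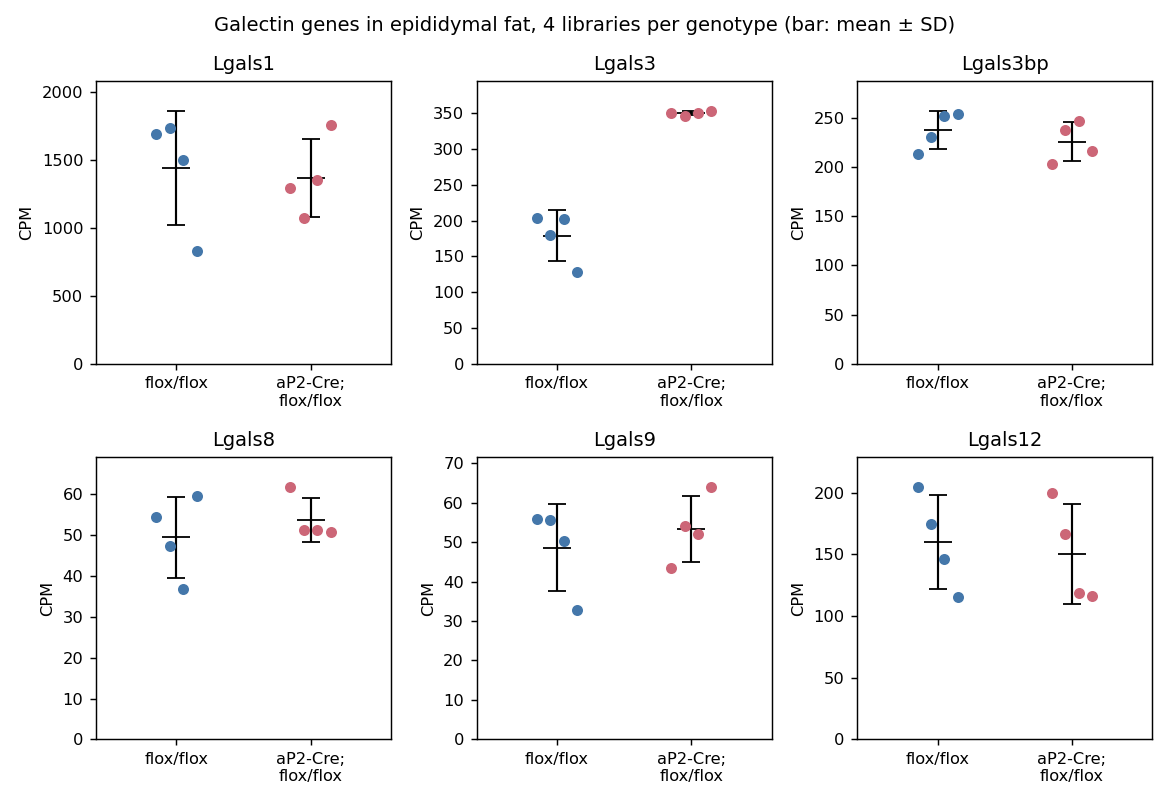
Level of each of the 6 members, in CPM on axes that start at 0, in the 4 flox/flox (blue) and 4 aP2-Cre;flox/flox (red) libraries; points are libraries and bars are mean ± SD. The 4 Cre values of Lgals3 sit at 346 to 353 CPM, above all flox values, while the 2 groups overlap in the other 5 panels.

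RefSeq promoters of 300 bases on GRCm38.p6, from 250 before to 50 after the start of transcription, were found for 4 of the 6 members, Lgals3, Lgals3bp, Lgals8 and Lgals9. The start is the one RefSeq gives, and for Lgals3 and Lgals8 the whole window lies inside the gene bounds printed here, which reach further upstream. Those of Lgals3, the member that changed, and Lgals9, an immune-cell galectin that did not pass, are shown 5′ to 3′ for comparison. Capitals mark matches on either strand to any of the 6 letter strings searched. These were the TATA box, written TATAAA, the GC box, written GGGCGG, the AP-1 site, written TGANTCA, an ETS-type site, written GAGGAA, the E-box, written CACGTG, and the CCAAT box. The Lgals3 promoter lies at chr14:47373610-47373909 on the plus strand and the Lgals9 promoter at chr11:78984875-78985174 on the minus strand.
Lgals3: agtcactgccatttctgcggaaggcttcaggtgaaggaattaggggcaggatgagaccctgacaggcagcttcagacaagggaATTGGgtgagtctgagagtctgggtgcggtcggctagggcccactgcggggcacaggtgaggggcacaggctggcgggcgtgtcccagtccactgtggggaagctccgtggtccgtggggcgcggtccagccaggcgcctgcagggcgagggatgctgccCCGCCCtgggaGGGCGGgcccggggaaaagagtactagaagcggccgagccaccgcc
Lgals9: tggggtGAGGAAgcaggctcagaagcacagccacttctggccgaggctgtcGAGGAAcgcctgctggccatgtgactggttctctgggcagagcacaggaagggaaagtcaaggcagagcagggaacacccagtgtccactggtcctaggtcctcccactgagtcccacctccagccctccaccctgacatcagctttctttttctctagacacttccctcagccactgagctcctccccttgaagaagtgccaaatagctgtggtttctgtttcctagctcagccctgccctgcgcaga
The Lgals3 promoter held 2 GC boxes, a string found in 35.7% of the 32851 promoters of the table, and 1 CCAAT box, found in 37.4%. Its GC content was 67%, against a median of 52.7% over all promoters. The Lgals9 promoter held 2 ETS-type sites, found in 28.3% of promoters, and none of the other 5 strings. Lgals3bp held 1 ETS-type site and Lgals8 held 2 CCAAT boxes. The TATA box, the AP-1 site and the E-box had no match in these 4 windows, and occur in 13.6%, 7.81% and 7.15% of all promoters. A match is a run of letters and not a measured binding site.

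Lgals1 (ENSMUSG00000068220, chromosome 15, 78926725 to 78930465, plus strand) encodes galectin 1, which works as a dimer of single sugar-binding domains. Its level was 1686, 1733, 1497 and 825 CPM in flox replicates 1 to 4. In Cre replicates 1 to 4 it was 1288, 1070.3, 1347 and 1754 CPM. The groups overlapped, although flox replicate 4, the smallest library, lay below all 4 Cre libraries. The means were 1435 ± 419 and 1365 ± 285 CPM (SD, n = 4 each), with a log2 fold change of -0.07 (95% interval -0.58 to 0.43, edgeR adjusted p = 0.984). Without flox replicate 4 the log2 fold change was -0.265 (edgeR adjusted p = 0.755). The interval does not exclude a change of up to 0.58 in size, so a moderate difference in Lgals1 was not detectable here.

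Lgals12 (ENSMUSG00000024972, chromosome 19, 7596660 to 7607193, minus strand) encodes galectin 12, which has a pair of sugar-binding domains and is known in fat cells as a lipid droplet protein that restrains lipolysis. It was at 205, 174, 146 and 115 CPM in flox replicates 1 to 4. In Cre replicates 1 to 4 it was at 199.6, 167, 119 and 116 CPM. Both groups covered nearly the same span, and the spread within each was about as wide as the whole range. The means were 160.2 ± 38.3 and 150.4 ± 40.3 CPM (SD, n = 4 each), with a log2 fold change of -0.10 (95% interval -0.56 to 0.36, edgeR adjusted p = 0.98). Some counts of Lgals12 were not whole, and its transcripts share 31-base words with 1420 genes, but no gene held over 11 of its 2779 words.

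Lgals8 and Lgals9 also encode galectins with paired sugar-binding domains. Galectin 8 is known for marking damaged vesicles, where in human cells it recruits the autophagy receptor encoded by CALCOCO2. In these libraries the mouse gene Calcoco2 had 0 to 7 estimated counts and was not tested. Lgals8 (ENSMUSG00000057554, chromosome 13, 12439415 to 12464944, minus strand) was at 54.5, 47.3, 36.8 and 59.6 CPM in flox replicates 1 to 4 and 61.8, 51.2, 51.2 and 50.8 CPM in Cre replicates 1 to 4. The groups overlapped, at 49.5 ± 9.9 and 53.8 ± 5.37 CPM (SD, n = 4 each; log2 fold change 0.12, 95% interval -0.21 to 0.46, edgeR adjusted p = 0.946). Its exons share 155 bases with the gene Heatr1 on the opposite strand, and use of strand in the authors' counting is not given in the sources used here. Its transcripts also share 31-base words with 1405 genes. The largest share, 70 of 3764 words, was with a gene absent from the table of counts, and the next was 9 words, with Nras. The division of a part of its reads is therefore uncertain.

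Galectin 9 is known as a ligand of TIM-3, a receptor found on some T cells and encoded by Havcr2. In these libraries Havcr2 had 0 to 6.76 estimated counts and was not tested. Lgals9 (ENSMUSG00000001123, chromosome 11, 78962974 to 78984946, minus strand) was at 55.9, 55.7, 50.2 and 32.7 CPM in flox replicates 1 to 4. In Cre replicates 1 to 4 it was at 43.5, 54.1, 52 and 63.9 CPM. The groups overlapped and flox replicate 4 was again the lowest. The means were 48.6 ± 10.9 and 53.4 ± 8.4 CPM (SD, n = 4 each; log2 fold change 0.12, 95% interval -0.25 to 0.50, edgeR adjusted p = 0.949). Without flox replicate 4 the log2 fold change was -0.012.

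Lgals3bp (ENSMUSG00000033880, chromosome 11, 118392751 to 118402092, minus strand) encodes a heavily glycosylated secreted protein that galectin 3 binds, and which is known to rise with interferon. It was at 213, 231, 252 and 254 CPM in flox replicates 1 to 4 and 203, 238, 247 and 217 CPM in Cre replicates 1 to 4. The groups overlapped, and this was the steadiest member over the 8 libraries, with the highest value 1.25 times the lowest. The means were 237 ± 19.3 and 226 ± 19.9 CPM (SD, n = 4 each), with a log2 fold change of -0.07 (95% interval -0.31 to 0.17, edgeR adjusted p = 0.957). The interval excludes a rise of the size seen for Lgals3, although the difference between these 2 genes was not tested.

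**Figure D2:**
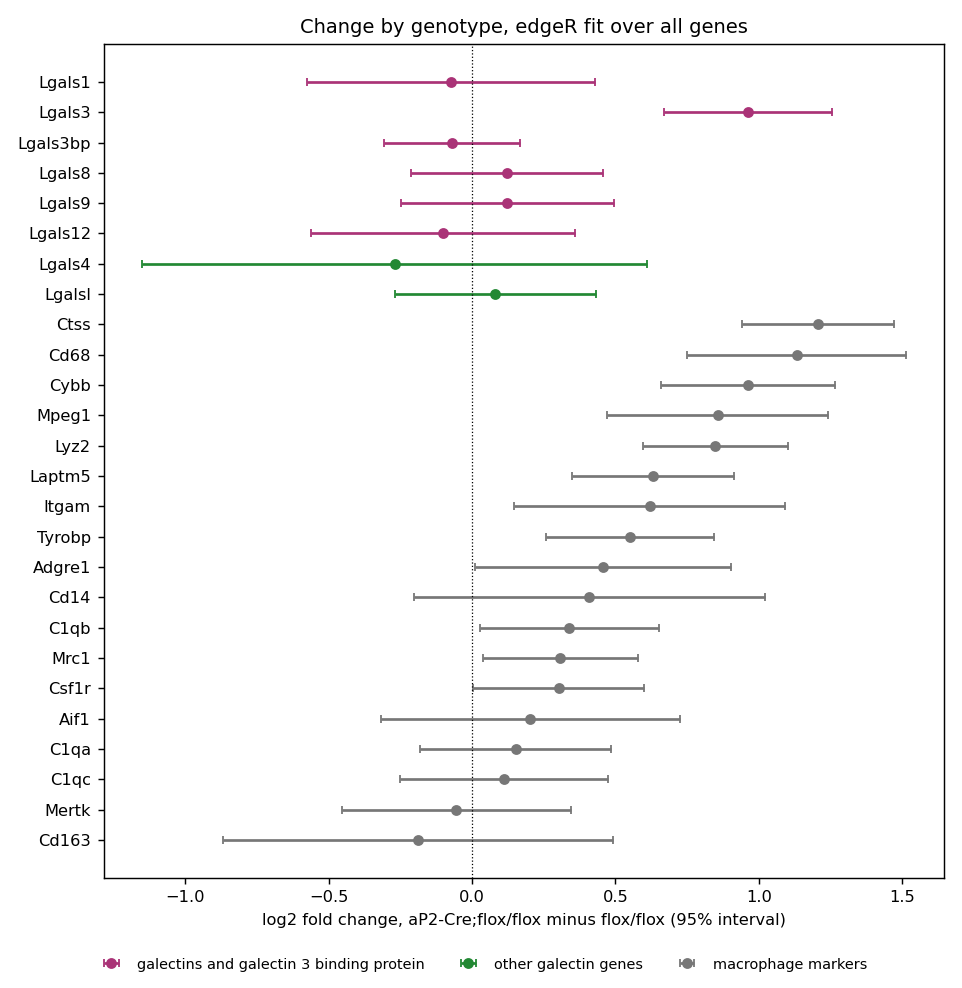
Log2 fold change of the Cre over the flox libraries with its 95% interval from the edgeR fit, for the 6 members (purple), the 2 other galectin genes that were tested (green) and 18 tested macrophage markers (grey, ordered by size). The interval of Lgals3, 0.67 to 1.26, lies above 0, and those of the other 5 members span 0.

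Of 5 other galectin genes found, 4 were below the lowest library of any member in CPM, and Lgalsl lay within the range of Lgals9. Lgalsl, a galectin-related gene that shares 142 of its 4113 words with the gene Gm5065 and is uncertain to that extent, was at 41.8 ± 5.95 CPM in the flox and 44.6 ± 7.81 CPM in the Cre libraries (SD, n = 4 each; log2 fold change 0.08, edgeR adjusted p = 0.971). Lgals4, known from the gut, was at 8.4 ± 3.8 and 7.06 ± 3.07 CPM (SD, n = 4 each; log2 fold change -0.27, edgeR adjusted p = 0.952). Lgals2 had 4 to 11 and Lgals7, the epidermal galectin, had 2 to 7 estimated counts per library, and neither passed the low-count filter. Grifin, a lens gene, had no counts in any library. This allows up to 0.982 to 1.95 CPM on library sizes without the TMM factors (3 counts, counting error only). Of the 2 genes of this list that were tested, 0 passed in edgeR, DESeq2 or limma-voom, and 0 had an unadjusted p under 0.05.

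To compare levels between genes, CPM were divided by the length of the longest annotated transcript, although in a 3′-end library a longer transcript need not give more reads. On this scale the order of the levels in the flox libraries was Lgals1, at 1794 ± 524 CPM per kilobase, then Lgals3 at 126 ± 25, Lgals3bp at 102 ± 8.3, Lgals12 at 58.1 ± 13.9, Lgals9 at 30.7 ± 6.89 and Lgals8 at 17.4 ± 3.48 (SD, n = 4 each). The neighbours Lgals3 and Lgals3bp overlapped in the flox libraries, as did Lgals9 and Lgals8. In the Cre libraries the order per kilobase was the same and no neighbours overlapped. Lgals3 there was at 247 ± 1.91 CPM per kilobase and Lgals3bp at 97 ± 8.53 (SD, n = 4 each). The order depends on that division. In CPM not divided by length, Lgals3bp was above Lgals3 in every flox library and below it in every Cre library, and Lgals8 and Lgals9 overlapped in both groups.

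The makeup of the galectin RNA was then described as each gene's share of the summed CPM of the 5 galectin genes, not divided by length. Lgals3 took 9.25%, 8.23%, 10.5% and 11.04% of the sum in flox replicates 1 to 4. It took 18.05%, 20.5%, 18.3% and 15.1% in Cre replicates 1 to 4. The lowest Cre share lay above the highest flox share. Lgals1 took 76 ± 3.48% in the flox and 68.7 ± 5.05% in the Cre libraries, and Lgals12 took 8.69 ± 1.11% and 7.83 ± 2.65% (SD, n = 4 each). The sum itself was 1872 ± 490.5 CPM in the flox and 1972 ± 269 CPM in the Cre libraries (SD, n = 4 each).

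**Figure D3:**
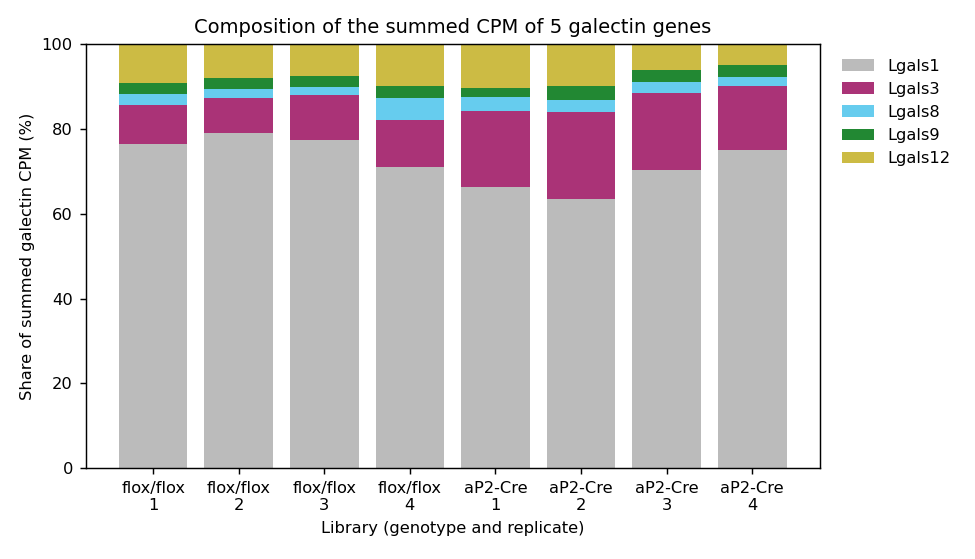
Share, in percent, of the summed CPM of Lgals1, Lgals3, Lgals8, Lgals9 and Lgals12 that each gene takes in each of the 8 libraries, stacked to the whole. The Lgals3 band (purple) is 8.23% to 11.04% in the flox/flox and 15.1% to 20.5% in the aP2-Cre libraries.

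Ratios within a library do not depend on scaling between libraries, and 4 of them were tested between genotypes. The ratio of Lgals3 to Lgals1 was 0.121, 0.104, 0.136 and 0.156 in flox replicates 1 to 4 and 0.273, 0.324, 0.26 and 0.201 in Cre replicates 1 to 4. The groups did not overlap, and the ratio was 2.04-fold higher in the Cre libraries (n = 4 each, two-sided exact permutation p = 0.0286, adjusted p = 0.0381 over 4 ratios). The ratio of Lgals3 to Lgals12 was 0.997, 1.03, 1.39 and 1.11 in flox and 1.755, 2.07, 2.94 and 3.03 in Cre replicates 1 to 4. The groups again did not overlap, with a 2.13-fold difference (n = 4 each, exact permutation p = 0.0286, adjusted p = 0.0381). So Lgals3 changed unequally to Lgals1 and to Lgals12 in these libraries. The ratios of Lgals3 share that gene, so their p-values are not independent of each other or of the test of Lgals3 itself. The smallest p that 4 libraries against 4 allow is 0.0286, and every tested ratio of Lgals3 sat at it. Their adjusted p of 0.0381 depends on how many ratios reach that p, and those that did all share Lgals3. The ratios of Lgals3 to Lgals3bp, Lgals8 and Lgals9 were not tested.

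Macrophage markers were read beside Lgals3. Of 20 markers listed, 18 were tested and 4 passed, all higher in the Cre libraries (edgeR adjusted p under 0.05): Ctss, Lyz2, Cybb and Cd68. The list's median log2 fold change was 0.43, with 16 of 18 genes above 0 and 12 with an unadjusted p under 0.05, all higher, where 3.52% of all tested genes were. Ctss, a lysosomal cathepsin, rose from 67.6 ± 3.03 to 156 ± 22.8 CPM (SD, n = 4 each; log2 fold change 1.21, edgeR adjusted p = 0.000666). Lyz2, the lysozyme of myeloid cells and the most abundant marker of the list, rose from 379 ± 23.4 to 682 ± 86.7 CPM (log2 fold change 0.85, edgeR adjusted p = 0.00776). Cybb, a subunit of the phagocyte oxidase, had an estimate of 0.96 (edgeR adjusted p = 0.0099), and Cd68, a lysosomal glycoprotein, one of 1.13 (edgeR adjusted p = 0.0156). Earlier results of these data had shown these 4 genes, so their rise is no independent support. The number that passed was 1 without flox replicate 2 and 2 without flox replicate 3.

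The other 14 tested macrophage genes did not pass, and 8 of them had an unadjusted p under 0.05, all higher. Mpeg1, which encodes a pore-forming protein of phagocytes, and Laptm5, a lysosomal membrane protein gene of blood cells, had log2 fold changes of 0.86 and 0.63 (edgeR adjusted p = 0.108 each), and both passed in DESeq2 and without the low-count filter, which each gave 6 markers. The adaptor gene Tyrobp, the integrin gene Itgam and Adgre1, which encodes the surface protein F4/80, had log2 fold changes of 0.55, 0.62 and 0.46 (edgeR adjusted p = 0.26, 0.616 and 0.771). Csf1r, the receptor gene for macrophage growth factor, the mannose receptor gene Mrc1 and the complement gene C1qb were at 0.30, 0.31 and 0.34 on that scale (edgeR adjusted p = 0.775, 0.701 and 0.726). The remaining 6 had an unadjusted p above 0.05. Among these, the complement genes C1qa and C1qc, expressed by resident macrophages like C1qb, were at 121 ± 18 and 114 ± 16.9 CPM in the flox and 134 ± 28.4 and 123 ± 30.7 CPM in the Cre libraries (SD, n = 4 each). Their log2 fold changes were 0.15 and 0.11 (edgeR adjusted p = 0.939 and 0.951). Cd14 and Aif1 had log2 fold changes of 0.41 and 0.20 (edgeR adjusted p = 0.91 and 0.943). The scavenger receptor gene Cd163 had a log2 fold change of -0.19 and the phagocytic receptor gene Mertk, whose product galectin 3 can bind, one of -0.06 (edgeR adjusted p = 0.957 and 0.984). All 20 markers were detected in at least 1 library, and the 2 not tested, Fcgr1 and Marco, were below 10 CPM in every library.

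The summed CPM of the 20 macrophage markers ranged from 1196 to 1389 in the flox and from 1830.1 to 2261 in the Cre libraries. Set against that sum, Lgals3 was at a ratio of 0.147, 0.138, 0.151 and 0.108 in flox replicates 1 to 4. In Cre replicates 1 to 4 the ratio was 0.19, 0.181, 0.192 and 0.156. The groups did not overlap, and Lgals3 was 1.33-fold higher relative to these markers in the Cre libraries (n = 4 each, exact permutation p = 0.0286, adjusted p = 0.0381 over 4 ratios). The value depends on the markers summed, since Ctss and Cd68 had larger log2 fold changes than Lgals3. Cybb was at 0.96, as was Lgals3. In the flox libraries the most abundant markers after Lyz2 were C1qa, C1qc, Mrc1 and C1qb. Their log2 fold changes were only 0.11 to 0.34, and they weigh on the sum. The part of a change in macrophage number in the Lgals3 result was not tested.

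The summed fat cell markers gave no such separation. Of 18 listed and tested, 0 passed in edgeR. In 1 of them, the adipokine gene Retn, every Cre library lay below every flox library, a separation that 1.74% of all tested genes showed. Retn alone had an unadjusted p under 0.05 (log2 fold change -0.65, edgeR adjusted p = 0.0731), and it passed in DESeq2 and in limma-voom. Of all tested genes, 6.39% had such an unadjusted p in edgeR. The median of the 18 markers was -0.10 on the log2 scale, and 4 of them were above 0. Car3, a carbonic anhydrase and the most abundant marker, was at 26548 ± 3416 and 24054 ± 3057 CPM (SD, n = 4 each; log2 fold change -0.14, edgeR adjusted p = 0.933). Their summed CPM ranged from 74066 to 95437 in the flox and from 63714 to 90476 in the Cre libraries. The log2 ratio of Lgals12 to that sum was -9.05 ± 0.28 in the flox and -9.01 ± 0.22 in the Cre libraries (SD, n = 4 each), a difference of 0.05 with overlapping groups (exact permutation p = 0.83, adjusted p = 0.83).

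**Figure D4:**
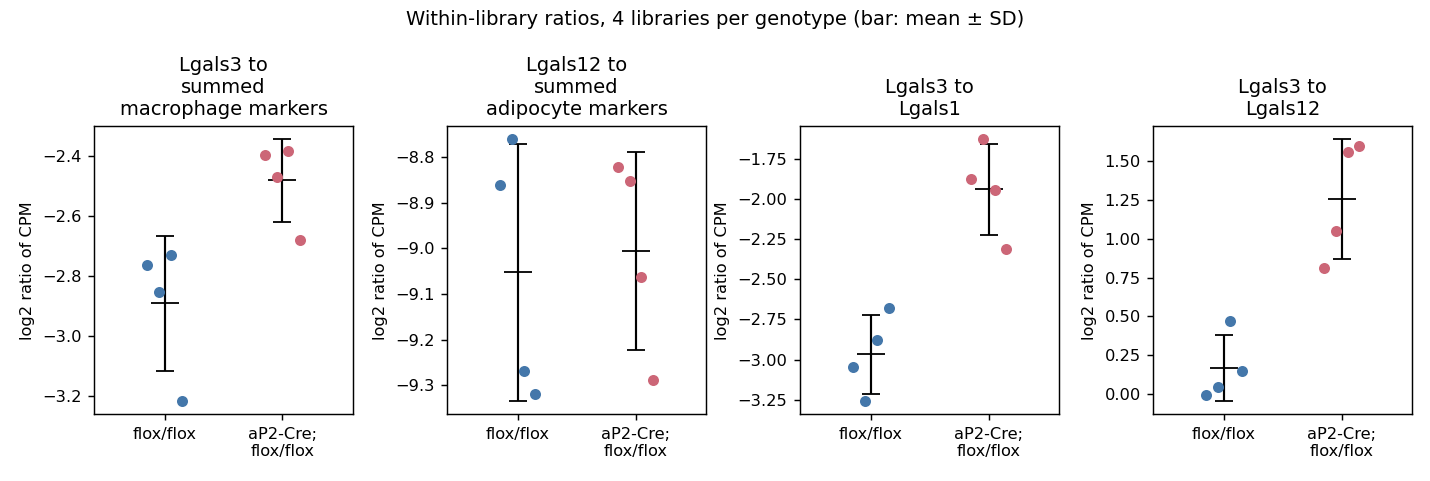
Log2 ratio of CPM within each library for Lgals3 to the summed macrophage markers, Lgals12 to the summed adipocyte markers, Lgals3 to Lgals1 and Lgals3 to Lgals12; points are the 4 libraries of each genotype, bars are mean ± SD, and each axis has its own range. The genotypes do not overlap in the 3 ratios of Lgals3 and overlap in that of Lgals12 to adipocyte markers.

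Markers of other cells were compared in the same fit, and 0 genes of the next 7 lists passed in edgeR, DESeq2 or limma-voom. Of all tested genes, 0.168% passed and 6.39% had an unadjusted p under 0.05 in edgeR. Of 14 fibroblast and stromal markers tested, 12 were above 0 with a median log2 fold change of 0.09, and 1, the fibrillin gene Fbn1, had an unadjusted p under 0.05 (log2 fold change 0.76, edgeR adjusted p = 0.482). Dcn, the most abundant, was at 1753 ± 152 and 1668 ± 175 CPM (SD, n = 4 each). Of 10 endothelial markers, 7 were above 0, the median was 0.13, and 1, Vwf, had an unadjusted p under 0.05 (log2 fold change -0.69, edgeR adjusted p = 0.733). Pecam1, the most abundant, was at 258 ± 77.5 and 217 ± 15.9 CPM (SD, n = 4 each). The summed endothelial markers were lowest in flox replicate 4, at 580 CPM. That library was also the lowest for Lgals1, and the part of its endothelial content in the Lgals1 value was not tested.

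Mesothelial markers had a median of -0.08 over 10 tested genes, with 0 at an unadjusted p under 0.05. Their most abundant gene, the keratin gene Krt8, was at 80.2 ± 56.8 and 51.1 ± 35.7 CPM (SD, n = 4 each). Of the blood markers 6 were tested, with a median of -0.28 and 0 at an unadjusted p under 0.05, and the globin gene Hbb-bs led at 2101 ± 724 and 1707 ± 442 CPM (SD, n = 4 each). Among neutrophil, dendritic and mast cell markers 7 were tested, with a median of 0.52. Their 1 gene with an unadjusted p under 0.05 was the integrin gene Itgax, which tissue macrophages can also express (log2 fold change 1.47, edgeR adjusted p = 0.418). The most abundant was the mast cell gene Cma1, at 8.77 ± 2.05 and 9.96 ± 2.99 CPM (SD, n = 4 each), and the neutrophil gene Ly6g had no counts. Lymphocyte and epididymis markers had 1 tested gene each, Cd3d and Adam28, with 0 at an unadjusted p under 0.05, and 8 of 13 epididymis markers had no counts in any library.

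Proteins that galectins are known to bind were followed as a list of 26 ligands and receptors, of which 22 were tested and 0 passed in edgeR. The median log2 fold change was 0.08, with 13 of 22 above 0, and 6 had an unadjusted p under 0.05, all higher, beside 3.52% of all tested genes. In 4 of the 22 every Cre library lay above every flox library, and in 2 every Cre library lay below. Of all tested genes, 2.48% and 1.74% showed these separations. The 2 lower genes were Slc1a5 and Lamp2 (log2 fold changes -0.22 and -0.19, edgeR adjusted p = 0.787 and 0.83). Slc1a5 was at 1324 ± 98.4 and 1134 ± 39.3 CPM (SD, n = 4 each). Trem2, a lipid-sensing macrophage receptor that galectin 3 binds, was at 8.08 ± 2.21 CPM in the flox and 21.4 ± 4.21 CPM in the Cre libraries (SD, n = 4 each). It was 1 of the 4 genes whose groups separated upward, with a log2 fold change of 1.40 (edgeR adjusted p = 0.0657). It passed in DESeq2 but not in limma-voom. Cd44, a hyaluronan receptor, was at 34.3 ± 8.36 and 51.8 ± 2.99 CPM (SD, n = 4 each; log2 fold change 0.57, edgeR adjusted p = 0.432). Ptprc, which encodes the leukocyte phosphatase CD45, was at 32.9 ± 5.86 and 46.5 ± 3.42 CPM (SD, n = 4 each; log2 fold change 0.48, edgeR adjusted p = 0.498). The other 3 with an unadjusted p under 0.05 were Itgam, the fibronectin gene Fn1 and the integrin gene Itgb1 (log2 fold changes 0.62, 0.54 and 0.28, edgeR adjusted p = 0.616, 0.726 and 0.773). Trem2, Cd44, Ptprc and Itgam are also expressed by macrophages, and the part of the macrophage markers in their values was not tested. Of the 26 genes, 3 were also on a marker list.

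Genes of glycan synthesis had, as a list, a median log2 fold change near the -0.001 of all tested genes. The list was read without regard to whether each gene favours or hinders the binding of galectins. Of 28 listed 26 were tested, 12 above 0 and 14 below, with a median log2 fold change of -0.02, and 0 passed in edgeR, DESeq2 or limma-voom. The 3 with the smallest p were the galactosyltransferase gene B4galt5 (log2 fold change 0.54, edgeR adjusted p = 0.689), the O-glycan gene C1galt1 (0.26, adjusted p = 0.883) and the galactosyltransferase gene B4galt1 (-0.23, adjusted p = 0.91). B4galt5 alone had an unadjusted p under 0.05. Of all tested genes, 0.168% passed and 6.39% had such an unadjusted p in edgeR. The summed CPM of the list spanned 1096 to 1125 in the flox and 1059.9 to 1121 in the Cre libraries.

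Genes of the response to damaged vesicles, in which galectins 3, 8 and 9 take part, likewise had a median near the -0.001 of all tested genes. Of 22 listed 21 were tested, 12 above 0 and 9 below, with a median log2 fold change of 0.02, and 0 passed in edgeR, DESeq2 or limma-voom. The 3 with the smallest p were Ubxn6, a cofactor of the segregase encoded by Vcp (log2 fold change -0.30, edgeR adjusted p = 0.708), the Rag GTPase gene Rraga (0.24, adjusted p = 0.816) and Lamtor1, a lysosomal anchor of the Rag GTPases (-0.15, adjusted p = 0.922). Ubxn6 alone had an unadjusted p under 0.05. Of all tested genes, 0.168% passed and 6.39% had such an unadjusted p in edgeR. Every Cre library lay below every flox library for Ubxn6 and above for Rraga. Of all tested genes, 1.74% separated downward and 2.48% upward in this way.

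Genes with a pattern like that of Lgals3 were ranked by the mean absolute difference in log2 CPM over the 8 libraries, each gene centred on its own mean, among 7444 other genes with at least 20 CPM on average. The nearest was C3ar1, a receptor for the complement fragment C3a, at 0.12 log2 units. It was followed by Cybb at 0.15, the Notch receptor gene Notch3 and the inter-alpha-trypsin inhibitor gene Itih5 at 0.17 each, and Apbb1ip, an adaptor of integrin activation in leukocytes, also at 0.17. All 5 were higher in every Cre library than in any flox library, which the likeness measure favours. C3ar1, at 18.6 ± 2.63 and 36.2 ± 3.63 CPM (SD, n = 4 each), passed the test (edgeR adjusted p = 0.038) with Cybb, while Notch3, Itih5 and Apbb1ip had edgeR adjusted p of 0.45, 0.307 and 0.208.

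The 5 genes nearest to Lgals12 were Bckdhb, which encodes a subunit of the branched-chain ketoacid dehydrogenase, Fah and Hint2, each at 0.09 log2 units, and then the sulfide oxidase gene Sqor and the sphingolipid gene Kdsr at 0.10. Fah encodes the last enzyme of tyrosine breakdown and Hint2 a mitochondrial protein. The groups overlapped in all 5, and their log2 fold changes lay between -0.15 and -0.06.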

How the data were processed

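RNA of 8 libraries, 4 per genotype, was measured by BRB-seq, a 3′-end method, per the labels' protocols. The deposited table holds the authors' estimated counts per gene, not normalized; 59.6% of values above 0 were whole. Salmon and GRCm38 are named, without version or role, per the submitters' processing notes; annotation, strand and molecular identifiers are not given in the sources used here. Counts were rounded, in place of the raw counts the design assumed. Of 34866 identifiers, 34582 matched GENCODE M21 without version. Genes were tested with edgeR 4.0.16 (R 4.3.3; robust quasi-likelihood, TMM factors, filterByExpr), with Benjamini-Hochberg adjustment over 12480 genes and a threshold of 0.05. Ratios used CPM plus 0.5 and two-sided exact permutation tests (scipy 1.17.1). Log2 CPM used a prior count of 2. The test was checked on simulated data. Replicate pairs differed by more than sampling noise (chi-square per degree of freedom 4.48 to 9.4).

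Results were recomputed with RLE or upper-quartile factors, no filter, DESeq2 1.42.0, limma-voom (limma 3.58.1), the replicate number as a block, a prior of 2 CPM, means of log2 CPM in place of sums, and leaving out each library. Genes named are Cyp19a1, the members and other galectins, genes of the galectin lists that passed or else the 3 with the smallest p, marker genes that passed and the most abundant marker, and the 5 genes most like Lgals3 and Lgals12. Other marker and ligand genes were named after their values were seen. The members and lists were chosen with earlier results of these data known.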

Additional observations from a re-analysis of the deposited data

Results flagged for a closer look

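Dixon's test at its 95% critical value was applied to the highest and lowest library in 46 sets of 4 values. It picked out 4, and about 2.3 (1 in 20) would be picked out by chance. Lgals8 was at 61.8 CPM in Cre replicate 1, against 50.8 to 51.2 CPM in the other 3 Cre libraries, where counting error alone corresponds to an SD of 4.6 CPM. The summed fibroblast and stromal markers were at 4086 CPM in flox replicate 1, against 4726 to 4824 CPM in the other flox libraries. The summed epididymis and male tract markers were at 16.7 CPM in flox replicate 2, against 7.05 to 8.52 CPM in the others. The summed neutrophil, dendritic and mast cell markers were at 83.3 CPM in Cre replicate 4, against 52.2 to 55.9 CPM in the others.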

How the results depend on the processing

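Lgals3 was higher in the Cre libraries under all 14 alternatives run, with log2 fold changes from 0.837 to 1.033. It passed in 12 of them and did not with the replicate number as a block (0.987, adjusted p = 0.0545) or without flox replicate 2 (0.966, adjusted p = 0.0605), and it was at the threshold without Cre replicate 1 (adjusted p = 0.0498). The number of members that passed was therefore 0 with the block and 0 to 1 when 1 library was left out. The other 5 members passed under no alternative. When 1 library was left out the sign turned for Lgals1 (-0.265 to 0.029), Lgals12 (-0.266 to 0.04) and Lgals9 (-0.012 to 0.207), and kept for Lgals3bp (-0.119 to -0.02) and Lgals8 (0.005 without flox replicate 3 to 0.21 without flox replicate 4).

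The number of genes past the threshold, 21 (15 higher, 6 lower), was 58 without the low-count filter (37 higher, 21 lower), 55 with DESeq2 (28 higher, 27 lower) and 6 with the replicate block (4 higher, 2 lower). It was 4 to 43 when 1 library was left out (3 to 18 higher, 1 to 25 lower), with 4 without flox replicate 2 and 43 without flox replicate 4. For replicate numbers 1 to 4 the deviations from the group means had correlations of 0.25, -0.062, -0.006 and -0.24, which does not meet the criterion for pairing. Without the filter 1 gene of the ligand and receptor list, Trem2, passed upward and 1 adipocyte marker, Retn, downward. Leaving out 1 library, added after seeing the data, left 1 to 4 macrophage markers past the threshold.

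The 3 ratios of Lgals3 kept their direction under every alternative run. With 1 library left out the smallest p is 0.0571, so none could pass, and the log2 differences were 0.3 to 0.474 relative to macrophage markers, 0.923 to 1.152 to Lgals1 and 0.973 to 1.236 to Lgals12. The ratio of Lgals12 to adipocyte markers, 0.046, ranged from -0.043 to 0.144. The causes of these differences between settings were not tested. Leaving out a library changes both the number of libraries and which ones remain.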
